A study of Mus musculus with 6 samples.

Results

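The epidermal growth factor (EGF) family ligands and the ERBB receptors were followed as 10 genes in mouse organoids, 7 ligands (*Egf*, *Tgfa*, *Areg*, *Ereg*, *Hbegf*, *Btc* and *Epgn*) and 3 receptors (*Egfr*, *Erbb2* and *Erbb3*). Every non-control probe carrying one of these gene names was taken, whatever its values, which gave 12 of the 55681 probes on the array. Organoids are epithelial cells grown as three-dimensional structures in Matrigel. The 6 arrays held passage 0 cultures without any treatment, 3 of squamous epithelium from the esophagus and 3 of columnar epithelium from the stomach. Both tissues carry the mouse numbers 1, 2 and 4, and the labels do not state that a number is the same animal in both. Below, a mouse means such a number. Organoids were harvested on day 8, except those of the stomach of mouse 4, which were harvested on day 7. The labels give no strain, sex or age, and the study's methods name wild-type C57BL/6 female mice. Esophageal organoids were seeded as single cells after collagenase and TrypLE, and stomach organoids as glands of the corpus freed with DTT and EDTA. Both media contained murine EGF, noggin, FGF-10, a TGF-β receptor kinase inhibitor and a ROCK inhibitor. The stomach medium also held WNT3A and R-spondin1 conditioned medium and gastrin, and the esophagus medium also held forskolin, so that tissue, isolation and medium cannot be told apart in any comparison below.

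The ligands of this family are made as membrane-bound precursors and released by sheddases, metalloproteases at the cell surface. *Egf*, *Tgfa*, *Areg* and *Epgn* bind EGFR, while *Hbegf*, *Btc* and *Ereg* bind EGFR and ERBB4. Among the neuregulins, *Nrg1* and *Nrg2* bind ERBB3 and ERBB4, and *Nrg3* and *Nrg4* bind ERBB4. ERBB2 has no known ligand and ERBB3 has little kinase activity of its own, so both signal as partners in dimers. In stratified squamous epithelium EGFR marks the proliferating basal layer, and in the stomach its ligands take part in gland renewal and in the growth of surface mucous cells.

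The labelled tissues matched their markers on the arrays. Of 7 squamous epithelium markers, all were well above background on every esophagus array and 1 was so on every stomach array, and of 10 gastric columnar markers these numbers were 2 and 10. The squamous exception was the brightest probe of *Trp63*, at a mean of 9.99 in esophagus and 11.20 in stomach. No fibroblast or smooth muscle marker was well above background on every array of either tissue. Esophagus replicate 2 alone was well above background for *Acta2* (6.69) and *Cnn1* (6.35) of the smooth muscle markers, whereas *Myh11* and *Des* were so on none of the arrays. Among immune cell markers, *Ptprc* and *Lyz2* were near background, meaning not marked as well above it, on all 6 arrays, while *Cd68* (13.17 in esophagus and 11.54 in stomach) and *Cd3e* were well above it on every array. On the arrays of mice 1, 2 and 4, *Cd68* read 14.77, 12.94 and 11.80 in esophagus and 11.04, 11.22 and 12.36 in stomach. Its difference was -0.56 within mouse 4, against 3.74 and 1.72 within mice 1 and 2. The summed intensity of the 4 immune cell markers ran from 11.89 to 14.79 (log2) on esophagus arrays and from 11.18 to 12.46 on stomach arrays. Of 4 endothelial markers, *Kdr* and *Pecam1* were well above background on every array, and *Cdh5* was near it on each. The part of such cells in the values below was not tested. Values are log2 intensities, and a log2 difference is always esophagus minus stomach. The groups were compared with limma over all probes, and a probe passed at a Benjamini-Hochberg adjusted p under 0.05.

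By the brightest probe of each gene, 5 of the 10 genes passed, against 14.9% of all 34298 gene names. *Tgfa* and *Egfr* were higher in esophageal organoids, a direction called for 7.15% of all gene names. *Btc*, *Erbb2* and *Erbb3* were higher in stomach organoids, a direction called for 7.7%. At the level of probes, 6 of 12 passed, against 12.2% of all probes. The members were brighter than most genes, since 9 of the 10 were well above background on all 6 arrays. The comparison was therefore also limited to probes that stood clear of background throughout one or the other tissue, which left out *Egf*. Of gene names, 28.4% then passed, with 6 of the 9 member genes and 8 of the 11 member probes. *Ereg* (limma's adjusted p = 0.0316) and the dimmer *Egfr* probes were among them. At an unadjusted p under 0.05 and 1.5-fold 6 of the 10 genes passed, against 21.7% of all gene names. In 6 of the 10 genes the values of the 2 tissues did not overlap, against 31.6% of all gene names. In the remaining 4, *Areg*, *Ereg*, *Hbegf* and *Epgn*, the tissues overlapped, and in each of them the difference within mouse 4 had the opposite sign to the differences within mice 1 and 2.

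**Figure D1:**
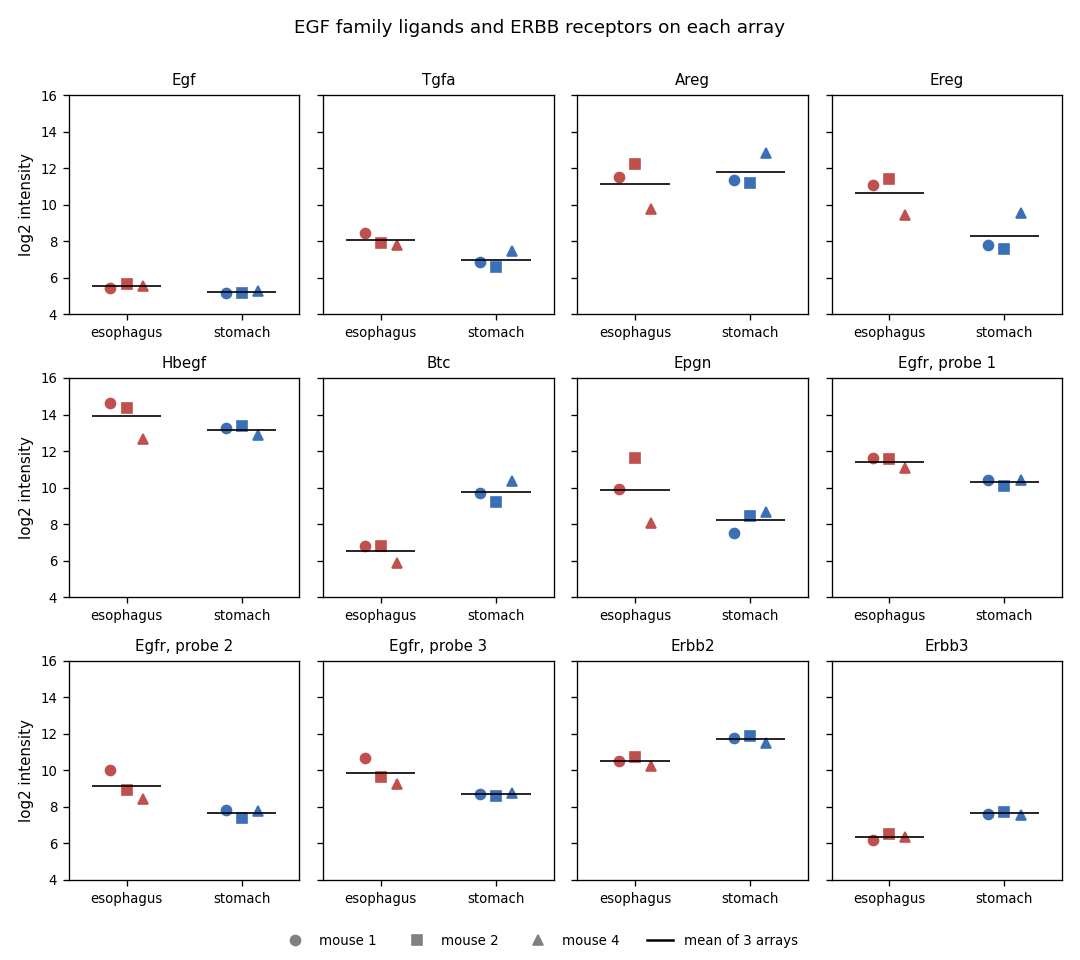
Log2 intensity (vertical axis) of the 12 probes of EGF family ligands and ERBB receptors on the 3 esophagus (red) and 3 stomach (blue) arrays. Symbols mark the mouse and the line is the mean of 3 arrays. *Egfr* probe 1 is annotated to the transcript NM_207655 and probes 2 and 3 to NM_007912. The *Btc* values lie between 5.89 and 6.81 in esophagus and between 9.22 and 10.35 in stomach, whereas those of *Areg*, *Ereg*, *Hbegf* and *Epgn* overlap.

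Each array averages a whole culture, so that fewer cells of a type and less RNA per cell cannot be told apart. Among the ligands, *Btc* (betacellulin) showed the largest difference. Its probe (chr5:91786948-91787007, minus strand, build mm9) read 6.81, 6.81 and 5.89 in esophageal organoids of mice 1, 2 and 4, and 9.69, 9.22 and 10.35 in stomach organoids of the same mouse numbers. All stomach values lay above all esophagus values, and all 6 arrays were well above background. The difference was -3.25 ± 0.35 (SE, n = 3 per tissue), which is 9.49-fold higher in stomach, with limma's adjusted p = 0.00068. It passed in each of the 15 alternatives, in which the difference ran from -3.78 to -2.79.

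*Tgfa* (transforming growth factor alpha) was higher in esophageal organoids. Its probe (chr6:86224838-86224897, plus strand) is printed on 10 spots of each array, whose values within an array had an SD of 0.106 to 0.164. The spot means were 8.47, 7.93 and 7.79 in esophagus and 6.84, 6.62 and 7.47 in stomach. The groups did not overlap, but within mouse 4 the esophagus value exceeded the stomach value by only 0.32, against 1.63 in mouse 1 and 1.31 in mouse 2. The difference was 1.09 ± 0.27 (SE), or 2.13-fold, with limma's adjusted p = 0.0378. This call was lost in 7 of the 15 alternatives, among them the mouse as a block (adjusted p = 0.0655), a normexp offset of 50 (0.0719) and scaling to the 75th percentile (0.0884). It was also lost without stomach replicate 1 (0.147), stomach replicate 2 (0.144), esophagus replicate 1 (0.0868) or esophagus replicate 2 (0.0819), each an adjusted p.

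*Ereg* (epiregulin) and *Epgn* (epigen) had higher means in esophagus without passing. *Ereg* (chr5:91522553-91522612, plus strand) read 11.06, 11.42 and 9.45 in esophagus and 7.77, 7.59 and 9.57 in stomach. In mice 1 and 2 esophageal organoids were higher by 3.28 and 3.83, whereas in mouse 4 the tissues differed by -0.12. The difference over all arrays was 2.33 ± 0.64 (SE; adjusted p = 0.0569 by limma), and its 95% interval ran from 0.84 to 3.83. *Epgn* (chr5:91464119-91464178, plus strand) read 9.94, 11.63 and 8.07 in esophagus and 7.53, 8.44 and 8.67 in stomach. The esophagus array of mouse 4 lay within the range of the stomach arrays. The *Epgn* difference was 1.67 ± 0.79 (SE; limma's adjusted p = 0.259), with a 95% interval from -0.18 to 3.51.

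*Hbegf* (heparin-binding EGF-like growth factor), which both tissues held at high intensity, also overlapped between them. Its values were 14.64, 14.38 and 12.67 in esophagus and 13.25, 13.38 and 12.90 in stomach. The esophagus array of mouse 4 was the lowest of all 6, and the difference was 0.72 ± 0.48 (SE; limma's adjusted p = 0.437), with a 95% interval from -0.39 to 1.83.

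*Areg* (amphiregulin) was well above background in every culture and had no constant direction. Its probe (chr5:91570090-91570149, plus strand) read 11.53, 12.21 and 9.75 in esophagus and 11.36, 11.20 and 12.82 in stomach. Mouse 4 held both extremes, with the lowest value in its esophagus and the highest in its stomach. The difference was -0.63 ± 0.66 (SE; limma's adjusted p = 0.652), with a 95% interval from -2.17 to 0.91, so that no difference was detected within these bounds.

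*Egf* itself was at the limit of detection. Its probe (chr3:129380826-129380885, minus strand, 10 spots) read 5.46, 5.66 and 5.55 in esophagus and 5.14, 5.17 and 5.27 in stomach. It was well above background on 2 of the 3 esophagus arrays and on none of the stomach arrays. The esophagus mean was at least 1.28-fold higher, without passing the test (adjusted p = 0.163 by limma). The protein was supplied to both cultures in the medium, which these arrays do not measure.

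The 4 overlapping ligands were all lowest among the esophagus arrays on esophagus replicate 4. So were *Tgfa* (7.79), *Btc* (5.89), *Egfr* by each of its probes and *Erbb2* (10.26), but not *Egf* and *Erbb3*. The immune cell marker *Cd68* was lowest there too (11.80). Esophagus replicate 4 is also the only array on the second slide, so that a fit within the first slide, a fit with slide as a block and a fit without this array give the same values. Without it, the differences were 2.93 for *Ereg* (adjusted p = 0.017), 2.57 for *Epgn* (adjusted p = 0.0223) and 1.34 for *Hbegf* (adjusted p = 0.0063) by limma. These 3 genes then passed as higher in esophagus, *Areg* turned to 0.077 (adjusted p = 0.955), and 8 of 10 genes were called against a background of 13.8%. Other arrays moved these values the opposite way, since the difference of *Epgn* was 0.79 without esophagus replicate 2, and that of *Hbegf* was 0.35 without esophagus replicate 1 and 0.48 without esophagus replicate 2. *Ereg* also passed without stomach replicate 4, the culture harvested on day 7 (2.96, adjusted p = 0.0138). Slide and mouse cannot be told apart for the former array, nor day of harvest and mouse for the latter. *Btc*, *Egfr*, *Erbb2* and *Erbb3* passed with each of the 6 arrays left out in turn.

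**Figure D2:**
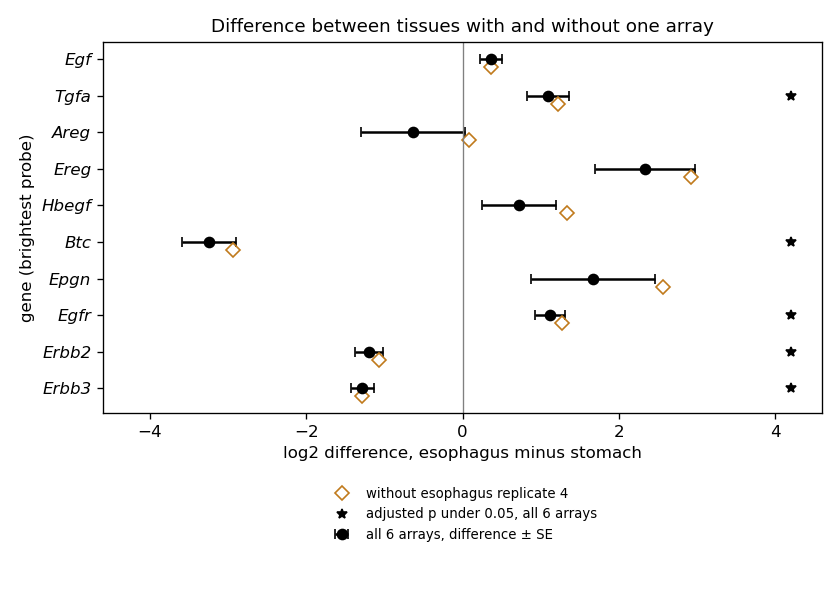
Log2 difference, esophagus minus stomach (horizontal axis), of each of the 10 genes by its brightest probe. Black points and bars are the difference ± SE over all 6 arrays, stars mark an adjusted p under 0.05, and open diamonds are the same difference without esophagus replicate 4. The diamond lies at 2.57 for *Epgn*, against 1.67 with all arrays, and at -1.28 for *Erbb3*, where both values coincide.

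Turning to the receptors, all 3 passed, and they did not move in 1 direction. *Egfr* was higher in esophageal organoids, and *Erbb2* and *Erbb3* were higher in stomach organoids. *Egfr* is covered by 3 probes. The brightest (chr11:16813815-16813874, plus strand, 10 spots), annotated to transcript NM_207655, read 11.61, 11.56 and 11.09 in esophagus and 10.42, 10.08 and 10.41 in stomach. The difference was 1.11 ± 0.19 (SE), or 2.17-fold, with limma's adjusted p = 0.0077. It passed in all 15 alternatives, with adjusted p between 0.0042 and 0.0404.

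The other *Egfr* probes are annotated to transcript NM_007912. One of them (chr11:16787172-16787231) read 10.01, 8.91 and 8.46 in esophagus and 7.82, 7.37 and 7.80 in stomach, a difference of 1.46 ± 0.37 (SE; limma's adjusted p = 0.0414). This call was lost in 6 of its 14 alternatives, among them leaving out stomach replicate 1 (adjusted p = 0.115), 2 (0.161) or 4 (0.0698) or esophagus replicate 2 (0.0837). The other (chr11:16783556-16783615) read 10.65, 9.66 and 9.27 in esophagus and 8.73, 8.61 and 8.78 in stomach, a difference of 1.16 ± 0.33 (SE) that did not pass (limma's adjusted p = 0.0615), although it passed in 5 of its 14 alternatives, at adjusted p between 0.0198 and 0.044. With all 3 probes the esophagus values lay above the stomach values on every array. The esophagus arrays spread more widely by the probes annotated to NM_007912, with an SD of 0.80 and 0.71, than by the brightest probe, with an SD of 0.28. Whether a probe also matches the other transcript was not tested, so the probes are not read as separate forms of the receptor.

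*Erbb2* (chr11:98298103-98298162, plus strand, 10 spots) read 10.54, 10.75 and 10.26 in esophagus and 11.76, 11.88 and 11.50 in stomach. The stomach value exceeded the esophagus value by a similar amount under each mouse number, as the differences within mice 1, 2 and 4 were -1.22, -1.12 and -1.25. Over all arrays it was -1.20 ± 0.18 (SE), 2.29-fold higher in stomach, with limma's adjusted p = 0.0044. With the scanner software's background-subtracted signals scaled to the 75th percentile the difference was -0.99 and did not pass (adjusted p = 0.0705), and that scaling moved the median difference of all probes from 0.02 to 0.19.

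*Erbb3* (chr10:128006424-128006483, minus strand) had the smallest spread of the receptors. It read 6.20, 6.51 and 6.36 in esophagus and 7.61, 7.74 and 7.57 in stomach, with an SD of 0.15 and 0.08. The difference was -1.28 ± 0.15 (SE), 2.43-fold higher in stomach, with limma's adjusted p = 0.00103, and it passed in all 15 alternatives. The sequences below are those of 3 probes as printed on the array, 5′ to 3′, shown because their values stand for the gene in *Areg* and *Erbb3* and because they identify the *Egfr* probe that did not pass. Capitals mark the TGA triplet with which the *Erbb3* probe ends and which closes its first reading frame.
Areg: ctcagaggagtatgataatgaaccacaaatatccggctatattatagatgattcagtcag
Egfr, NM_007912: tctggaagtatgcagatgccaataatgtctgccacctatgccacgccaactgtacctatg
Erbb3: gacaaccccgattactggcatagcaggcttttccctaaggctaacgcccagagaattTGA

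The remaining receptor and the neuregulins ranged from no measured level to the largest difference in the pathway. *Nrg1* read 12.73, 12.51 and 12.64 in esophagus and 5.98, 5.49 and 5.66 in stomach. The difference was 6.91 ± 0.17 (SE), with limma's adjusted p = 2.9e-07, and it ran from 6.14 to 8.01 over the alternatives and passed in each. *Erbb3*, a receptor for this ligand, was thus lower in the tissue in which *Nrg1* was higher. *Nrg2* by its brightest probe read 8.43, 6.77 and 7.11 in esophagus and stayed near background in stomach, where none of the arrays marked it as well above it. It was at least 5.79-fold higher in esophagus (limma's adjusted p = 0.0041), whereas its other probe was near background in both tissues. *Nrg4* was well above background on the 3 stomach arrays alone and did not pass (at least 1.59-fold higher in stomach, limma's adjusted p = 0.0536). *Nrg3* and *Erbb4* were near background on all 6 arrays, which leaves no measured level for the receptor that *Hbegf*, *Btc* and *Ereg* share with the neuregulins.

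**Figure D3:**
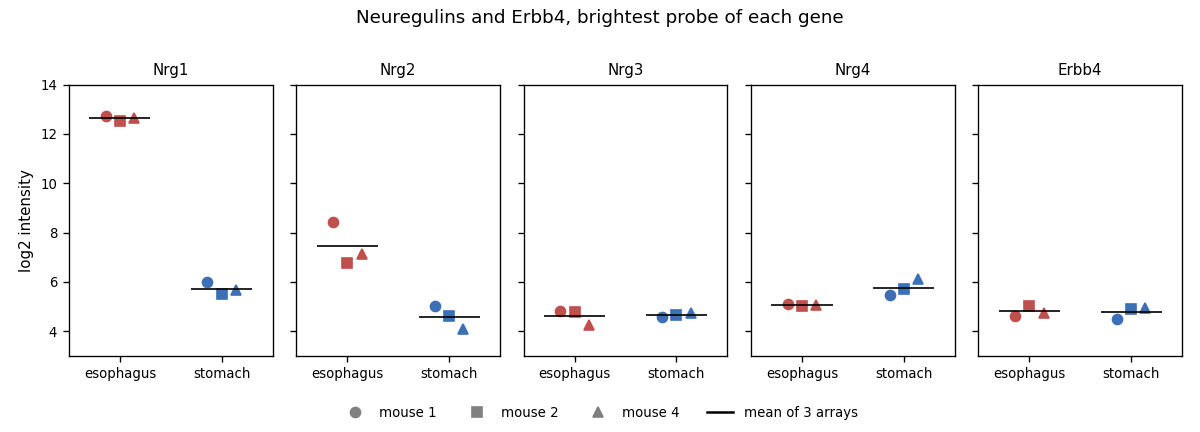
Log2 intensity (vertical axis) of *Nrg1*, *Nrg2*, *Nrg3*, *Nrg4* and *Erbb4* by the brightest probe of each gene on 3 esophagus (red) and 3 stomach (blue) arrays. Symbols mark the mouse and the line is the mean of 3 arrays. The *Nrg1* values lie between 12.51 and 12.73 in esophagus and between 5.49 and 5.98 in stomach, and those of *Nrg3* and *Erbb4* stay near background.

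*Epgn*, *Ereg*, *Areg* and *Btc* lie next to each other on chromosome 5, where their probes span 322.9 kb in build mm9. Going from *Epgn*, the differences were 1.67, 2.33, -0.63 and -3.25 for *Epgn*, *Ereg*, *Areg* and *Btc*, of which the last alone passed. Between the probes of *Epgn* and *Ereg* the array carries 3 probes for an unnamed interval (chr5:91480533-91502237, minus strand), which lie end to end and were looked at after their values had been seen. The 3 probes read 8.27 to 9.58 in esophagus and 5.30 to 6.50 in stomach, and the differences were 2.59 to 3.44, with limma's adjusted p between 6.1e-05 and 0.00068. In contrast to *Epgn* and *Ereg*, these probes were not lower in esophagus replicate 4, where they read 9.58, 8.96 and 8.87. On the other side of *Epgn*, the chemokine gene *Cxcl1* read 10.37, 9.57 and 6.95 in esophagus and 6.35, 6.58 and 6.07 in stomach without passing (limma's adjusted p = 0.0681). Like *Epgn* and *Ereg*, it was lowest of the esophagus arrays in mouse 4.

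**Figure D4:**
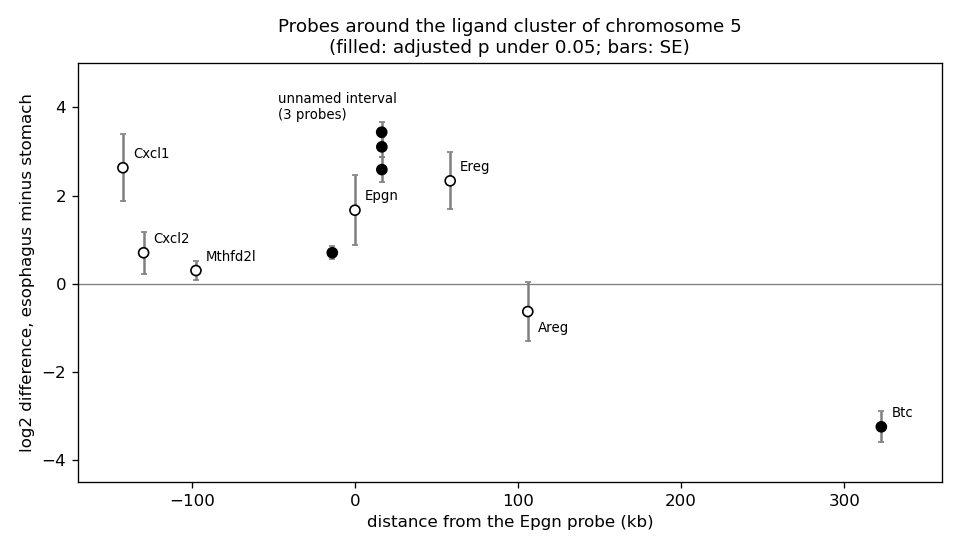
Log2 difference, esophagus minus stomach (vertical axis), of the probes around the ligand cluster against the distance of the probe from the *Epgn* probe in kb (horizontal axis). Bars are SE, and filled points passed at an adjusted p under 0.05. The filled points are *Btc* at -3.25, the 3 probes of the unnamed interval, and a second probe of *Mthfd2l* just before *Epgn*.

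Promoter sequences, from 250 bases before to 50 after the start of the gene, were taken from a table of RefSeq promoters (build GRCm38.p6) in which 7 of the 10 genes were matched. They are shown for the cluster ligands matched. Both strands were searched for the cAMP response element TGACGTCA, the AP-1 site TGANTCA and the TATA box TATAAA, and matches are in capitals. Of the 32851 promoters of this length, 1.79% held the cAMP response element, 7.81% the AP-1 site and 13.6% the TATA box. Of the 7 members matched, *Areg* alone held the cAMP response element, at base -61 from the start, *Areg* and *Epgn* held the TATA box, and none held the AP-1 site. The *Areg* entry lies at chr5:91139349-91139648 (plus strand), that of *Epgn* at chr5:91027267-91027566 (plus strand) and that of *Btc* at chr5:91402945-91403244 (minus strand).
Epgn: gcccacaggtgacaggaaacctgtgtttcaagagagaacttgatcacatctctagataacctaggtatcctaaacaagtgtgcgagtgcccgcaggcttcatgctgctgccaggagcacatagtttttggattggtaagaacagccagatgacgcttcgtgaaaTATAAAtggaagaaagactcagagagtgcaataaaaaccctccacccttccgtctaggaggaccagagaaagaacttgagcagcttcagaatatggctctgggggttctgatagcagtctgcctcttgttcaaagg
Areg: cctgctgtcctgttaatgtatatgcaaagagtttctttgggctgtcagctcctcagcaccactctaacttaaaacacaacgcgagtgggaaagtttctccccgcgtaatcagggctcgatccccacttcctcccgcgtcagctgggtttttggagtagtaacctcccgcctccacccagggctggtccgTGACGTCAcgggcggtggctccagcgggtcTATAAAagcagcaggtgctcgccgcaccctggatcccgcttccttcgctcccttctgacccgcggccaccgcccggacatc
Btc: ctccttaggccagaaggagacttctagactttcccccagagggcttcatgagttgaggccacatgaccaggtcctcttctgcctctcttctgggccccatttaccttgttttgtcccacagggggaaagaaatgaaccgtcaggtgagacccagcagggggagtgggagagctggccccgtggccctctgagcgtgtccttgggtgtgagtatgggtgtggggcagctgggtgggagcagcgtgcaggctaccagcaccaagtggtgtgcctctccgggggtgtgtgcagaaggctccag

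The other genes of the pathway were described by role, from lists of 98 genes that were all on the array. Of these, 20 were higher in esophagus, 8 were higher in stomach and 70 did not pass, against a background of 14.9% of all gene names called. By direction, 7.15% of all gene names were called higher in esophagus and 7.7% higher in stomach. These shares over all gene names also stand beside the counts by role below. Of the 98 genes, 88 were well above background throughout a tissue. With the comparison limited to such probes, 29 of the 88 were called, 21 higher in esophagus and 8 higher in stomach, against 28.4% of gene names. Of such gene names, 13.6% were called higher in esophagus and 14.7% higher in stomach, which also bears on the counts by role. The median difference of the 98 genes was 0.18, beside 0.03 over all gene names. Without stomach replicate 1 the number called was 18, where 9.16% of all gene names passed, and without stomach replicate 2 it was 17, where 9.3% passed.

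Among 12 sheddases and trafficking genes, 1 was higher in esophagus, 2 were higher in stomach and 9 did not pass, with a median difference of -0.05. *Adam9* and *Adam10*, metalloproteases that cleave membrane-bound ligands, were higher in stomach, by -2.35 ± 0.25 (SE; adjusted p = 0.00063) and -0.95 ± 0.16 (adjusted p = 0.0072). *Rhbdf1*, an inactive rhomboid that carries ADAM17 to the cell surface, was higher in esophagus, by 0.71 ± 0.18 (adjusted p = 0.0431). Of 18 genes for receptor inhibition and turnover, 2 were higher in esophagus, 1 was higher in stomach and 15 did not pass, with a median of 0.05. The phosphatase gene *Ptprk* was higher in stomach (-2.19 ± 0.21, adjusted p = 0.00036). *Ptpn1*, another phosphatase gene (1.67 ± 0.18, adjusted p = 0.00075), and *Socs5*, which promotes breakdown of EGFR (1.63 ± 0.24, adjusted p = 0.0037), were higher in esophagus.

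Of 20 adaptor and RAS-MAPK genes, 4 were higher in esophagus, 1 was higher in stomach and 15 did not pass, with a median of 0.22. The small GTPase genes *Hras* (1.70 ± 0.21, adjusted p = 0.0014) and *Nras* (0.86 ± 0.20, adjusted p = 0.029) and the exchange factor gene *Sos2* (0.96 ± 0.17, adjusted p = 0.0077) were higher in esophagus. The kinase gene *Araf* was higher in stomach by its brightest probe (-1.23 ± 0.23, adjusted p = 0.0121), but another of its probes was higher in esophagus (0.81 ± 0.16, adjusted p = 0.0159). Its probes thus disagree, and the count of 1 gene higher in stomach rests on the brightest. Among 18 other effectors, 4 were higher in esophagus, 3 were higher in stomach and 11 did not pass, with a median of -0.11. Of those that passed, the exchange factor gene *Vav3* had the largest difference towards esophagus, at 3.98 ± 0.30 (adjusted p = 9.6e-05). It was followed by *Nck1* (1.32) and *Plcg1* (0.998), an adaptor and a phospholipase. The EGFR substrate gene *Eps8* was the furthest towards stomach, at -3.51 ± 0.48 (adjusted p = 0.0025), with *Pik3r1* (-1.62) and *Stat5a* (-1.13), a regulatory subunit of PI3 kinase and a transcription factor.

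Among the 25 response and feedback genes, 7 were higher in esophagus, 1 was higher in stomach and 17 did not pass, and the median was 0.80. The ERK phosphatase genes *Dusp7* (4.30 ± 0.29, adjusted p = 5.3e-05) and *Dusp6* (1.78 ± 0.22, adjusted p = 0.0016) and the AP-1 subunit gene *Junb* (1.26 ± 0.26, adjusted p = 0.0187) were higher in esophagus. *Plaur*, the urokinase receptor gene, was higher in stomach (-3.97 ± 0.32, adjusted p = 0.00013). Single arrays stood apart here too, in genes picked after their values had been seen. Esophagus replicate 2 read 14.59 for *Fos* and 12.75 for *Egr2*, against 9.41 and 6.30 in replicate 1 and 9.21 and 6.11 in replicate 4, and it also held the highest esophagus values of *Areg*, *Ereg* and *Epgn*. Esophagus replicate 4, which held the lowest esophagus values of these ligands and of *Hbegf*, was the lowest for *Jun* (9.89), *Dusp4* (7.59) and *Dusp5* (5.53), against 12.81, 11.39 and 8.20 in replicate 1. It was the lowest esophagus array for most of the 25 genes, but not for all. For *Etv5* (12.67), *Spry4* (6.83), *Spred1* (10.26) and *Spred2* (8.67) it was the highest. The part of these single-array levels in the ligand values was not tested.

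**Figure D5:**
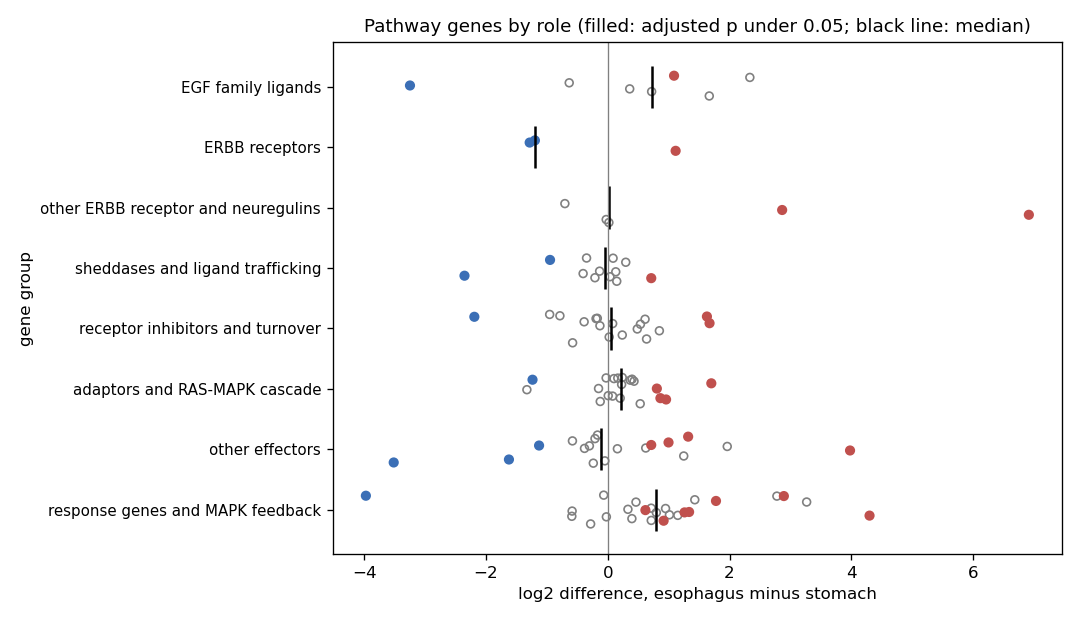
Log2 difference, esophagus minus stomach (horizontal axis), of each gene by its brightest probe, in rows by role. Filled points passed at an adjusted p under 0.05, red where esophagus and blue where stomach was higher, open points did not pass, and black lines are medians. The receptors' median lies at -1.20 and that of the response genes at 0.80, and *Nrg1* stands alone at 6.91.

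Genes whose values ran most like those of the leading ligand and receptor were sought among genes with a difference within 0.5 of theirs. For *Btc*, the 3 highest Pearson correlations over the 6 arrays among 279 genes were those of *Appl2* (r = 0.996), *Il1r1* (r = 0.990) and *Tmem30b* (r = 0.989). For *Erbb3*, those among 1842 genes were *Mia3* (r = 0.998), *Tor2a* (r = 0.998) and *Pxmp4* (r = 0.997). All of these genes share the difference between the tissues by selection, and the correlations are given as a description.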

How the data were processed

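RNA of 6 organoid cultures was hybridised by the authors to Agilent SurePrint G3 Mouse 8x60K arrays in a single colour and read with Feature Extraction (version 11.5.1.1). The authors' deposited table holds log2 values, background corrected and quantile normalized by them. The deposited scanner files hold raw mean and median intensity, local background intensity, background-subtracted intensity and flags per spot, not normalized between arrays. Applied to the median intensities, normexp (offset 15) and quantile normalization came within a median absolute difference of 0.00433 of this table. Its 2029 empty cells were outlier-marked spots.

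Control spots were left out, log2 values of spots of 1 probe were averaged, and in R (version 4.3.3) lmFit and eBayes of limma (version 3.58.1) compared the tissues over 55681 probes on 6 arrays, with no block and with p-values adjusted by Benjamini-Hochberg across every probe. The script was tested on simulated data. A gene was represented by its brightest probe. The methods state p under 0.05 and 1.5-fold and do not say whether p was adjusted. A probe was well above background on an array if at least 50% of its spots were so marked, which held for 45.5% to 51.1% of probes. Where a whole tissue was below this, folds are lower bounds set against the dimmest probe well above background on each array, or against the probe's own value where that was higher. Such a bound allows for background but not for the spread between arrays. Precision is limited by having 3 arrays per tissue.

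The labels give the mouse numbers 1, 2 and 4 for both tissues, and the arrays were paired by these numbers on that ground alone. They do not state that a number is the same animal in both tissues. Deviations from the tissue means correlated with r = 0.042, 0.023 and -0.002 within mice 1, 2 and 4, and with -0.091 to 0.04 between mice, over 25836 probes. Slide 1 held 5 arrays and slide 2 held esophagus replicate 4.

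Members, pathway lists and tests were chosen with earlier results of these data known. By rule, the genes named are all members with every probe, the neuregulins and *Erbb4*, in each other role group up to 3 genes per direction with the smallest adjusted p among those that passed and were well above background throughout a tissue, and the 3 genes most correlated with the leading ligand and receptor. *Fos*, *Egr2*, *Jun*, *Dusp4*, *Dusp5*, *Etv5*, *Spry4*, *Spred1*, *Spred2*, *Cxcl1*, *Mthfd2l* and the unnamed interval on chromosome 5 were named after their values had been seen. Marker genes come from the marker lists. Coordinates are those of the files (mm9). Alternatives were other background corrections and scalings, a filter on dim probes, mouse or slide as a block, eBayes with trend, the mean of a gene's probes, an unadjusted p under 0.05 with 1.5-fold, and leaving out each array.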

Additional observations from a re-analysis of the deposited data

How the results depend on the processing

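Having 3 arrays per tissue limits what these comparisons resolve, and dim genes such as *Egf*, *Nrg3*, *Nrg4* and *Erbb4* are limited by background. With 5 member genes and 6 member probes called in the comparison as reported, 8 genes and 10 probes were called with slide as a block, with 13.8% of gene names and 11.3% of probes. Leaving out each array gave 4 to 8 member genes, 4 to 10 member probes and 17 to 30 of the other pathway genes, against 28, while the share called over all gene names ran from 9.16% to 16.3%, against 14.9%. The highest member counts were those without esophagus replicate 4, and the lowest pathway count was that without stomach replicate 2. At an unadjusted p under 0.05 and 1.5-fold 6 member genes and 41 pathway genes passed, against 21.7% of all gene names. *Areg*, which did not pass in any setting, reversed to 0.077 with slide as a block, and leaving out each array moved it between -1.16 and 0.077. The replicate block by mouse left 4 member genes, 5 member probes and 24 pathway genes called, with 13.6% of gene names and 11.1% of probes. It lost *Tgfa* (adjusted p = 0.0655) and changed no other call of a member. Scaling to the 75th percentile left 4 member genes and 19 pathway genes, with 12.8% of gene names, lost *Tgfa* and *Erbb2*, and called *Ereg* (adjusted p = 0.047). The cause of these changes was not tested. Of the 192 values of single genes and probes under the alternatives, 162 kept their direction and their side of the threshold, 14 no longer passed, 14 newly passed and 2 reversed.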
